A study of Mus musculus with 4 samples.

Results

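The motile cilia genes are 48 genes whose products build, move or switch on motile cilia, and they were read here in mouse lung. They were taken by symbol from a list of genes of the motile cilium. Of the 48, 46 had a row with a value above 0 in at least 1 library, out of 23282 rows in all, and Dnah3 and Dnah12 were not analysed here. A filter on low values, a normalized count of 4 or more on average, was passed by 44 members and by 15164 rows, and Mcidas and Tekt2 stayed under it.

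Lung RNA of male CDF1 mice was measured by 3' mRNA sequencing, with 1 library for each group. There were 4 groups: the normal control E(-)T(-), normal mice with high-intensity aerobic exercise on a treadmill E(+)T(-), the cancer control E(-)T(+), and cancer mice with the same exercise E(+)T(+). CT26, a colorectal cancer line of the mouse, had been injected into the tail vein of the cancer mice, so that a cancer lung can hold cells of that line beside its own. All groups shared the strain and the labelled age of postnatal day 28, which the study's methods give as about the age at purchase. The series lists 10 mice per group, but neither labels nor methods say of the lung whether RNA of several mice was pooled. Calf muscle is described as taken from a representative mouse of each group, and the lung as analysed in a similar way. With 1 library per group there was no replicate check and no test of a difference.

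Motile cilia stand in dense tufts on the multiciliated cells that line the conducting airways, where they beat together and move mucus toward the throat. Each is built on an axoneme, a cylinder of doublet microtubules around a central pair. Dynein motors arranged as outer and inner arms slide the doublets, while radial spokes, the central pair and nexin links turn sliding into a regular bend. The cells switch these genes on together, through multicilin, the forkhead factor FOXJ1 and factors of the RFX family, and loss of single members in people causes primary ciliary dyskinesia.

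Promoters were at hand for 39 of the 46 members with a row, and 5 are shown because they carry letters that RFX or forkhead factors are known to recognize. Each is the 300 base window from 250 bases before to 50 bases after a RefSeq start (GRCm38.p6), on the strand of the gene, and capitals mark the letters searched. Ccno lies at chr13:112987552-112987851 (plus strand), Sntn at chr14:13670626-13670925 (plus), Ccdc153 at chr9:44240427-44240726 (plus), Tekt1 at chr11:72361833-72362132 (minus) and Zmynd10 at chr9:107547054-107547353 (plus).
Ccno: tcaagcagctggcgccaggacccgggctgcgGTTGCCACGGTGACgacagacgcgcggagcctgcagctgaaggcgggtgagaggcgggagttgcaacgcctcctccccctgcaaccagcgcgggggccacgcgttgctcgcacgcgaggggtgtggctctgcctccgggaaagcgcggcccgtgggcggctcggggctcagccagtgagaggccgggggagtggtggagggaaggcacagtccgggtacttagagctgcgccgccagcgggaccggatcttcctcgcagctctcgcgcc
Sntn: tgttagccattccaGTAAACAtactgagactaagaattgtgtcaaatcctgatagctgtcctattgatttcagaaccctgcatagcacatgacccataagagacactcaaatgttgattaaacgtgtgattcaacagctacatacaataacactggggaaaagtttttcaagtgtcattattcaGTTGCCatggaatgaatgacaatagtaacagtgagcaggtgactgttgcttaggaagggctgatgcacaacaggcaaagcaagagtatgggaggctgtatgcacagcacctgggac
Ccdc153: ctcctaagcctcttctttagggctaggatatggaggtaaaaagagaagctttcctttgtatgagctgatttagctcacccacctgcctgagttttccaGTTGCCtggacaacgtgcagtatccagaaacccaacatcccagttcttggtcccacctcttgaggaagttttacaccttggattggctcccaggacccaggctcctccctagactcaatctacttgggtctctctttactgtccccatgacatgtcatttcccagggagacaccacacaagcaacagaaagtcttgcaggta
Tekt1: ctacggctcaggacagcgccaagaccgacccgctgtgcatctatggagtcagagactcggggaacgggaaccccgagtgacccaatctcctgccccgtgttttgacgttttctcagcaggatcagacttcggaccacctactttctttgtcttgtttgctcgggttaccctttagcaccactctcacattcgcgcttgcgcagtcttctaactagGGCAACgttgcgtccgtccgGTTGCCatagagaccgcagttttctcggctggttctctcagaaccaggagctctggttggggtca
Zmynd10: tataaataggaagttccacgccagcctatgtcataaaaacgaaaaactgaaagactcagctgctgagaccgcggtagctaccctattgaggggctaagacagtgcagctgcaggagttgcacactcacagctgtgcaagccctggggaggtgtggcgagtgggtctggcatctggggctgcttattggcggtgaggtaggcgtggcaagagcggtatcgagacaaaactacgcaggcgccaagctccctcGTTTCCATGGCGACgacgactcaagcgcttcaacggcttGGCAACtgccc

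The RFX letters, GTTGCC on either strand, were in the windows of 22 of the 39 members (56.4%). They were in those of 3821 of the 27025 genes in the RefSeq promoter table (14.1%), and in 12.5% of all its windows of that length. In Ccno they began at position -219, counted from the start at 1, in Sntn at -66 and in Ccdc153 at -152. Tekt1 held them on both strands, at -35 and -15. Zmynd10 held them at 40, inside the transcribed part. The other members with them were Ccdc113, Dnah10, Dnah7a, Dnah7b, Dnaic2, Drc1, Dynlrb2, Hydin, Mcidas, Mlf1, Rfx2, Rfx3, Spag16, Spag6, Spef2, Tekt2 and Tekt4. A facing pair of looser sites (GTNNCC, 0 to 3 bases, then GGNNAC), a pattern chosen after the sequences were seen and one that can overlap GTTGCC, was in 8 members (20.5%) against 4.38% of the genes in that table. Ccno carried it at -219, overlapping its GTTGCC, and Zmynd10 at 1, at the start itself. The facing pair was also in 22 of 97 other axoneme genes (22.7%). It was in 12 of 42 genes of intraflagellar transport and the primary cilium (28.6%), a larger share than in the members. The forkhead letters TGTTTAC, searched on both strands, were in 3 members (Ak7, Mlf1 and Sntn, 7.69%) against 4.05% of the genes in that table. A match is a description of the letters and not a binding site, and no match says only that these letters are not in this window. Armc4, Foxj1, Lrrc6, Rp1, Rsph1, Rsph4a and Tppp3 have no window here.

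The library of E(-)T(+) stood apart from the other 3 across the whole lung. Reads assigned to rows numbered 9354489 in it and 12780385 to 13368066 in the others, and 3 reads, the floor used here, were worth 0.224 to 0.321 CPM, reads scaled to a common library total. Genes of red blood cells held 1.43% of its reads (95% Wilson interval 1.43 to 1.44) against 14.2% to 31.6% in the others. The 12 cell division genes summed to 940 CPM in it, against 38.9, 64.2 and 210 CPM in E(-)T(-), E(+)T(-) and E(+)T(+). Comparisons that use E(-)T(+) are therefore set beside the 2 that do not, E(+)T(-) over E(-)T(-) and E(+)T(+) over E(+)T(-). Values below are normalized counts, obtained from the deposited log2(normalized count + 1), and are given in the order E(-)T(-), E(+)T(-), E(-)T(+), E(+)T(+). Differences are of those log2 values, and a member counts as higher or lower past the limit at 2-fold or more.

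The summed value of motile cilia genes was lowest in the library of the cancer control lung. Between the lungs without tumor 40 of 44 members stayed within 2-fold, as did 13651 of all 15164 rows, a like share. Between the exercised lungs 38 of 44 members did, and 10940 of the 15164 rows. All 46 members with a row summed to 11531, 11269, 3120 and 8799 normalized counts, with E(-)T(+) lowest and E(+)T(+) below both lungs without tumor. Without Tppp3 the other 45 members summed to 5815, 5873, 2804 and 6272, with E(-)T(+) again lowest and E(+)T(+) highest. E(-)T(+) had the lowest value of the 4 libraries in 37 of the 44 filtered members, and in 38 of all 46, while it was lowest in 36.9% of all filtered rows. The highest value was in E(+)T(+) for 18 of the 44, in E(-)T(-) for 15 of them, in E(+)T(-) for 10 and in E(-)T(+) for 1. Among all filtered rows the shares were 22.3%, 22.4%, 19.7% and 35.5%, in that order of libraries. In a bulk sample, fewer multiciliated cells, less RNA per cell and a larger share of RNA from other cells cannot be told apart.

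**Figure D1:**
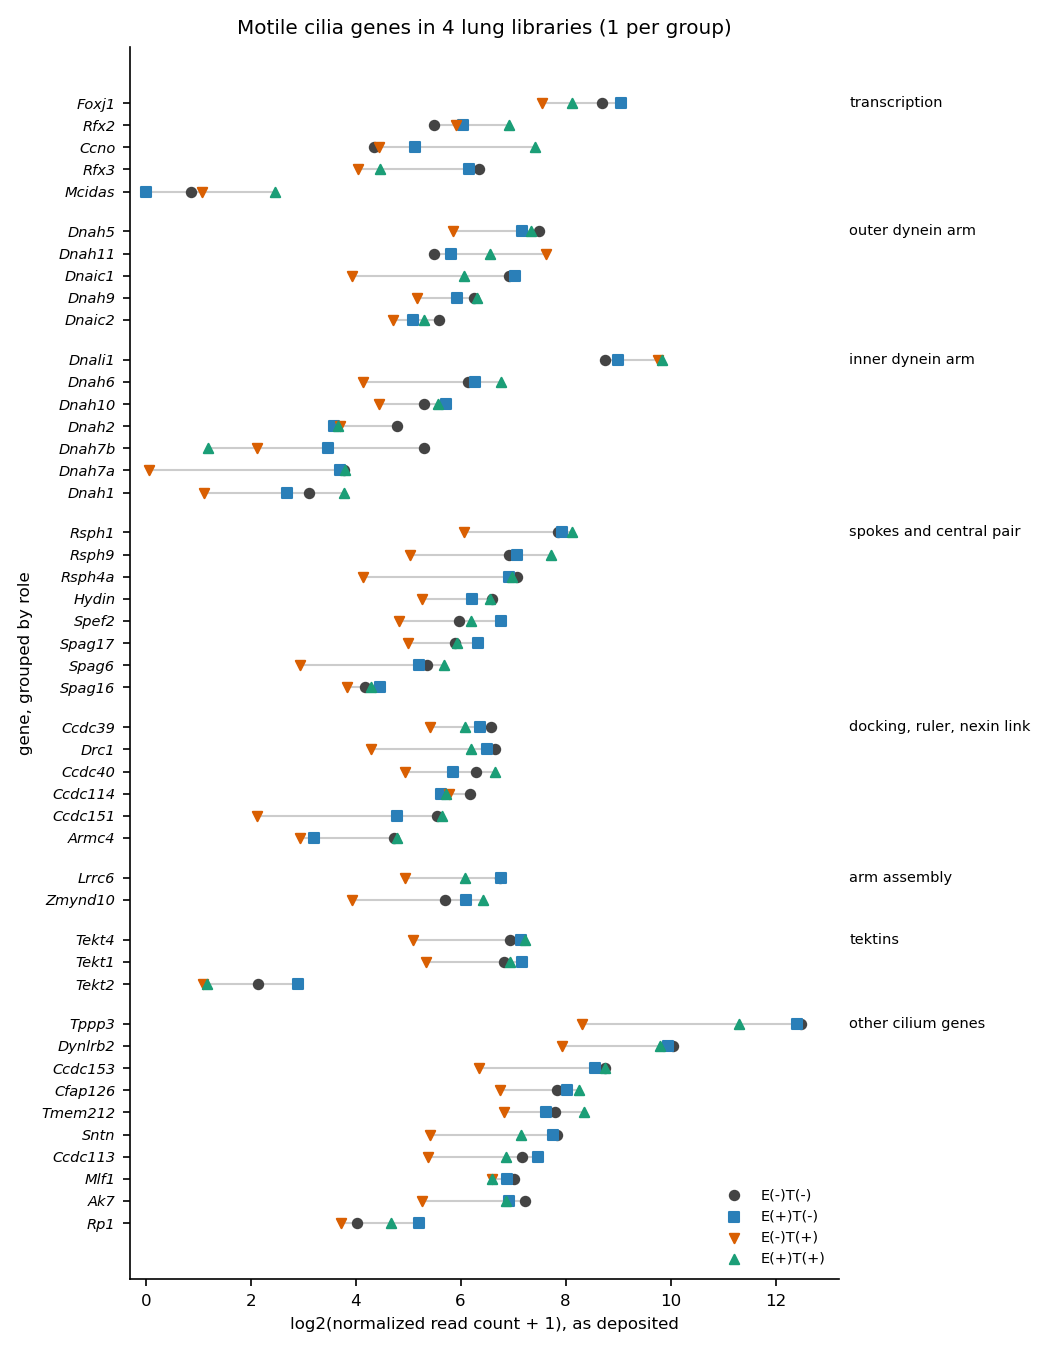
Deposited log2(normalized read count + 1) of the 46 motile cilia genes on the horizontal axis, 1 row per gene and 1 marker per library, grouped by role. The downward markers of E(-)T(+) lie at the left end of the line for 38 of the 46 genes, and Dnah11 has them at the right end.

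In reads the members' sum had the same order of groups as in normalized counts. Members held 13568, 12267, 2845 and 7528 reads, or 1042, 960, 304 and 563 CPM (95% Wilson intervals 1025 to 1060, 943 to 977, 293 to 316 and 551 to 576). Tppp3 alone gave 6726 of the 13568 reads in E(-)T(-). Without it the sums were 526, 500, 273 and 401 CPM, so that E(+)T(+) was below both lungs without tumor in CPM and above both in normalized counts, and the share of E(+)T(+) is a share of a library in which red cell genes took 31.6% of the reads. All intervals given cover counting error only, since PCR copies are not independent molecules.

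The first comparison asked what exercise changed in lungs without tumor. Between E(+)T(-) and E(-)T(-), 1 of 44 members was higher and 3 were lower by the limit, while 5.28% of all 15164 rows were higher and 4.7% lower. The median difference of the members was -0.09 and that of all rows 0.00. Rp1, which encodes a microtubule protein known from photoreceptors, was the member higher, at 15.2, 35.9, 12.1 and 24.5. Its difference was 1.18, and the exact 95% interval of the log2 read ratio ran from 0.39 to 2.12. Dnah2, Dnah7b and Armc4 were the members lower, each at 45 reads or fewer in either library, with differences of -1.20, -1.84 and -1.53. None of the 3 remained past the limit where a mean count of at least 20 was asked, since their means lie under it.

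The second comparison asked what tumor changed in lungs without exercise. Between E(-)T(+) and E(-)T(-), 32 of 44 members were lower and 2 higher, against 25.7% lower and 20.6% higher among all rows. The median difference was -1.70 for the members and -0.03 for all rows, and over all 46 members it was -1.56. The exact interval lay wholly below 0 for 31 of the 32 and wholly above 0 for both that were higher. Dnah1, with 9 reads against 1, was the member lower whose interval reached above 0. The members higher were Dnah11 and Dnali1, and the remaining 10 stayed within the limit.

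The third comparison asked what exercise changed in lungs of cancer mice. Between E(+)T(+) and E(-)T(+), 31 of 44 members were higher and 1, Dnah11, was lower, against 24.3% higher and 17.7% lower among all rows. The median difference was 1.51 for members and 0.01 for all rows. This comparison shares the library of E(-)T(+) with the second, so that a low value there enters both with opposite sign. When the libraries were scaled by their totals alone, 21 members were higher and 2 lower, against 16.4% higher and 35.4% lower among all rows. The members' median was then 0.91, while that of all rows moved to -0.59. Among all rows past the limit the share higher then fell from 57.8% to 31.6%.

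The fourth comparison asked what tumor changed in exercised lungs, and it uses neither library of the second. Between E(+)T(+) and E(+)T(-), 3 of 44 members were higher and 3 lower, against 14.9% higher and 13% lower among all rows. The median difference was 0.08 for members and 0.00 for all rows. Ccno, Dnah1 and Armc4 were higher, and Rfx3, Dnah7b and Tppp3 were lower. With totals alone 8 of the 44 members were lower, against 24.2% of all rows. The members' median was then -0.31 and that of all rows -0.41. The share of higher rows among those past the limit fell from 53.5% to 28.2%. Relative to all rows the members' median was 0.09 with the deposited values and 0.10 with totals alone.

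**Figure D2:**
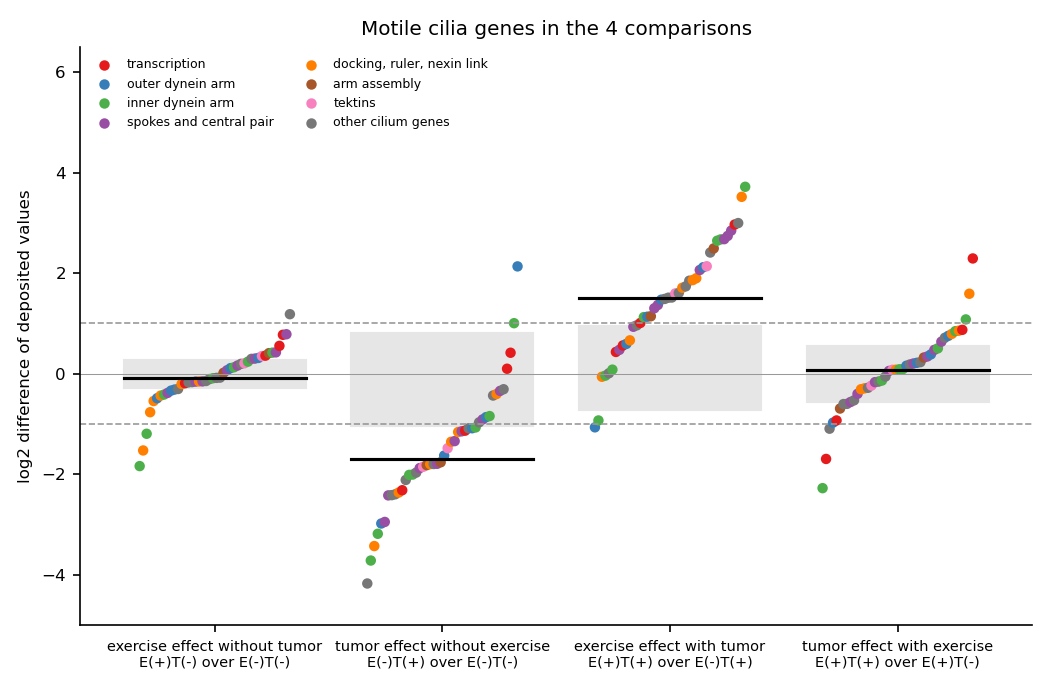
Log2 difference of the deposited values (vertical axis) for the 44 filtered motile cilia genes in each of the 4 comparisons, sorted within a comparison and colored by role. Black bars are the members' medians (-0.09, -1.70, 1.51 and 0.08), gray boxes span the quartiles of all 15164 filtered rows, and dashed lines mark 2-fold.

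Of the 4 filtered genes that switch the program on, 2 were lower and 0 higher in the second comparison. In the fourth 1 was higher and 1 lower. The counts of each role here and below stand beside the shares of all rows. Those were 25.7% lower and 20.6% higher in the second comparison and 24.3% higher and 17.7% lower in the third. In the fourth they were 14.9% higher and 13% lower. Foxj1, the forkhead factor required for motile cilia, was at 412, 529, 187 and 277 (485, 576, 171 and 237 reads). It was lower in both lungs with tumor than in either without. Its difference was -1.13 without exercise (interval -1.40 to -0.88) and -0.93 with exercise (-1.16 to -0.71). Its exercise effects were 0.36 without tumor and 0.56 with tumor, both within the limit.

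Rfx3, a factor of the RFX family that binds the promoters of cilia genes, was at 80.9, 70.8, 15.4 and 21.2 (95, 77, 14 and 18 reads). It was low in both lungs with tumor, and the tumor effects were -2.32 without and -1.70 with exercise (intervals -3.32 to -1.58 and -2.58 to -0.99). Rfx2, a second factor of that family, was at 44.1, 65.2, 59.2 and 120 (52, 71, 54 and 103 reads). Its highest value was in E(+)T(+), 1.01 above E(-)T(+) and 0.87 above E(+)T(-). The pair thus lay in different orders across the libraries.

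Ccno encodes cyclin O, which the multiciliated cell needs to make its many centrioles. It was at 19.4, 33.9, 20.9 and 170 (23, 37, 19 and 146 reads). The value in E(+)T(+) was far above the other 3, by 2.97 over E(-)T(+) (interval 2.34 to 3.81) and by 2.29 over E(+)T(-) (1.80 to 2.89). Mcidas, multicilin, which starts the program, lies next to Ccno on the same strand: GENCODE places Ccno at chr13:112987802-112990777 and Mcidas at chr13:112993845-113000394 (GRCm38). Mcidas had 1, 0, 1 and 4 reads, at or near the floor of 3, and no difference is drawn from it.

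Of the outer arm, 3 of 5 members were lower and 1 higher in the second comparison, and none passed the limit in the fourth. Dnah5, a heavy chain and a frequent cause of ciliary dyskinesia, was at 179, 143, 57.0 and 160. It was lowest in E(-)T(+), with differences of -1.63 for tumor without exercise (-2.11 to -1.20) and 0.16 with exercise (-0.18 to 0.50). Dnah9, another heavy chain, was at 75.6, 59.7, 35.1 and 78.3, and its tumor effects were -1.09 and 0.39. Dnaic1, an intermediate chain that holds the heavy chains together, was at 120, 130, 14.3 and 65.5. It had 13 reads in E(-)T(+) and was 2.98 lower there than in E(-)T(-) on the log2 scale (difference -2.98). Its tumor effect with exercise was -0.97 (-1.46 to -0.53), within the limit and below 0, unlike those of Dnah5 and Dnah9. Dnaic2, the other intermediate chain, ranged from 25.2 to 46.8 and stayed within the limit in all 4 comparisons.

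Dnah11, a heavy chain of outer arms near the cell, differed in direction from the other outer arm members. It was at 44.1, 55.1, 197 and 93.5 (52, 60, 180 and 80 reads), highest in E(-)T(+). Its tumor effect without exercise was 2.13 (interval 1.71 to 2.63) and its exercise effect with tumor was -1.07 (-1.48 to -0.69). GENCODE places it at chr12:117877982-118199043 on the minus strand, and its 3' end lies inside Cdca7l, which runs on the plus strand and ends 724 bases away. Cdca7l had 59, 56, 247 and 105 reads, and its own differences in the same 2 comparisons were 2.41 and -1.13. The study does not state whether reads were counted by strand, and without strand reads of the pair cannot be told apart.

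Of the inner arm, 7 of 9 listed members had a row, and 5 were lower and 1 higher in the second comparison. Dnali1, a light intermediate chain, was at 431, 509, 865 and 916 (507, 554, 790 and 783 reads). It was higher in both lungs with tumor, by 1.01 without exercise (0.84 to 1.17), which is just past the limit, and by 0.85 with exercise (0.69 to 1.01). It also ends inside a gene on the other strand: Gnl2, whose 3' end is 42 bases from its own. Gnl2 had 600, 739, 1361 and 999 reads and tumor effects of 1.55 and 0.78.

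Among the heavy chains of the inner arm, Dnah6 was at 69.7, 76.2, 16.5 and 109, with tumor effects of -2.01 (-2.98 to -1.28) and 0.50. Dnah10 was at 38.2, 51.5, 20.9 and 46.7, and its tumor effects, -0.84 and -0.14, stayed within the limit. Dnah2 was highest in E(-)T(-), at 26.5, and lay between 11.0 and 12.1 in the other 3. The next were described after their values were seen. Dnah7b had 45, 11, 3 and 1 reads and was the inner arm member lower in both tumor comparisons, at -3.19 (interval -5.87 to -1.90) and -2.28 (-8.54 to -0.33). Dnah7a, a close relative of Dnah7b whose reads the counting may have split with it, had 15, 13, 0 and 11 reads. Set at the floor of 3 reads in E(-)T(+), it was at least 3.88-fold lower there than in E(-)T(-) and at least 3.91-fold lower than in E(+)T(+). That floor is not an interval end, and the exact intervals of the log2 read ratios allow smaller folds, with the nearer end at -1.48 in the second comparison and at 1.42 in the third. Dnah1 had 9, 6, 1 and 11 reads.

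The radial spokes and central pair regulate the beat. All 8 members of this role were below 0 in the second comparison, 6 of them past the limit, with a median of -1.57. All 8 were above 0 in the third, 6 past the limit, and none passed it in the first or the fourth. Among all 15164 rows 7751 were below 0 in the second comparison and 7627 above 0 in the third. Rsph1, a spoke head protein, was at 230, 242, 65.8 and 278, with tumor effects of -1.79 (-2.24 to -1.40) and 0.20 (-0.06 to 0.46). Rsph9, also of the spoke head, was at 120, 134, 31.9 and 209, and its tumor effects were -1.88 and 0.64. Rsph4a, another protein of the head, was at 134, 120, 16.5 and 125. The 15 reads it had in E(-)T(+) gave a tumor effect of -2.95 (-3.90 to -2.26), and the effect with exercise was 0.06 (-0.33 to 0.44). These spoke head genes were thus low in E(-)T(+) alone.

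Hydin, a very large protein of the central pair, was at 96.1, 73.5, 37.3 and 93.5, with tumor effects of -1.34 and 0.34. Spef2, of the same apparatus, was at 62.0, 108, 27.5 and 72.5, with tumor effects of -1.15 and -0.56. Spag6, Spag16 and Spag17 ranged from 6.65 to 79.1 over the 4 libraries, each with its lowest value in E(-)T(+). Only Spag6 among them was past the limit in the second comparison, at -2.42.

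Genes of docking, the axonemal ruler and the nexin link numbered 6, and all lay below 0 in the second comparison, 5 past the limit. Drc1, of the nexin link and dynein regulatory complex, was at 100.3, 90.1, 18.7 and 72.5, with tumor effects of -2.36 (-3.26 to -1.69) and -0.31. Ccdc40 and Ccdc39 form the ruler that spaces the arms along the doublet. Ccdc40 was at 77.4, 56.9, 29.7 and 99.3, and Ccdc39 at 94.4, 81.8, 41.7 and 66.6. Their tumor effects without exercise were -1.35 and -1.16, and with exercise 0.79 and -0.29. Ccdc114, of the complex that docks outer arms, was at 71.4, 48.7, 53.7 and 51.5 and stayed within the limit throughout.

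Its partners in docking, described after their values were seen, had fewer reads. Ccdc151 had 54, 29, 3 and 42 reads, with tumor effects of -3.43 (-6.13 to -2.18) and 0.86 (0.17 to 1.62). Armc4 had 30, 9, 6 and 23 reads and was low in E(+)T(-) as well as in E(-)T(+).

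Lrrc6 and Zmynd10 act in the cytoplasm, where dynein arms are put together before they enter the cilium. Lrrc6 was at 107, 108, 29.7 and 66.7, with tumor effects of -1.82 (-2.51 to -1.25) and -0.69 (-1.18 to -0.23). Zmynd10, whose promoter is printed above, was at 50.9, 68.0, 14.3 and 85.2, with tumor effects of -1.76 (-2.83 to -0.96) and 0.32 (-0.16 to 0.81). Both were lowest in E(-)T(+), and Zmynd10 was highest in E(+)T(+).

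Tektins are filaments inside the doublet microtubules. Tekt4 was at 122, 141, 32.9 and 148, with tumor effects of -1.85 and 0.08. Tekt1 was at 112, 143, 39.5 and 122, with tumor effects of -1.48 and -0.24. Both were lower in E(-)T(+) than in any other library and close together in the other 3. Tekt2 had 4, 7, 1 and 1 reads, around the floor, and no difference is drawn from it.

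Of the 10 other cilium genes, all lay below 0 in the second comparison, 7 past the limit, and all above 0 in the third, 8 past the limit. Tppp3, a tubulin-binding protein abundant in multiciliated cells, was at 5716, 5396, 316 and 2527 (6726, 5874, 288 and 2162 reads). It was the member lowest against its control in the second comparison, at -4.17 (-4.35 to -4.01). In the fourth it was -1.09 (-1.17 to -1.02), so that its value in E(+)T(+) lay between that of E(-)T(+) and those without tumor.

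Dynlrb2, a light chain of dynein, was at 1061, 985, 244 and 884, and its tumor effects were -2.11 (-2.33 to -1.91) and -0.16 (-0.29 to -0.02). Ccdc153 was at 427, 379, 80.1 and 430, with tumor effects of -2.40 (-2.79 to -2.06) and 0.18 (-0.02 to 0.39). Sntn encodes sentan, a protein of the ciliary tip. It was at 227, 215, 41.7 and 142, with tumor effects of -2.42 (-2.98 to -1.95) and -0.60 (-0.93 to -0.28). Ak7, an adenylate kinase of the axoneme, was at 149, 120, 37.3 and 116, with tumor effects of -1.97 and -0.06.

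Cfap126, also called Flattop, was at 227, 260, 106 and 305, with tumor effects of -1.09 and 0.23. Ccdc113 was at 144, 176, 40.6 and 116, with tumor effects of -1.80 and -0.60. Each was lowest in E(-)T(+). Tmem212 was at 222, 198, 113 and 325, and its tumor effect of -0.97 fell just short of the limit, while its exercise effect with tumor was 1.52. Mlf1 was at 129, 117, 95.3 and 95.9 and stayed within the limit in all 4 comparisons.

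**Figure D3:**
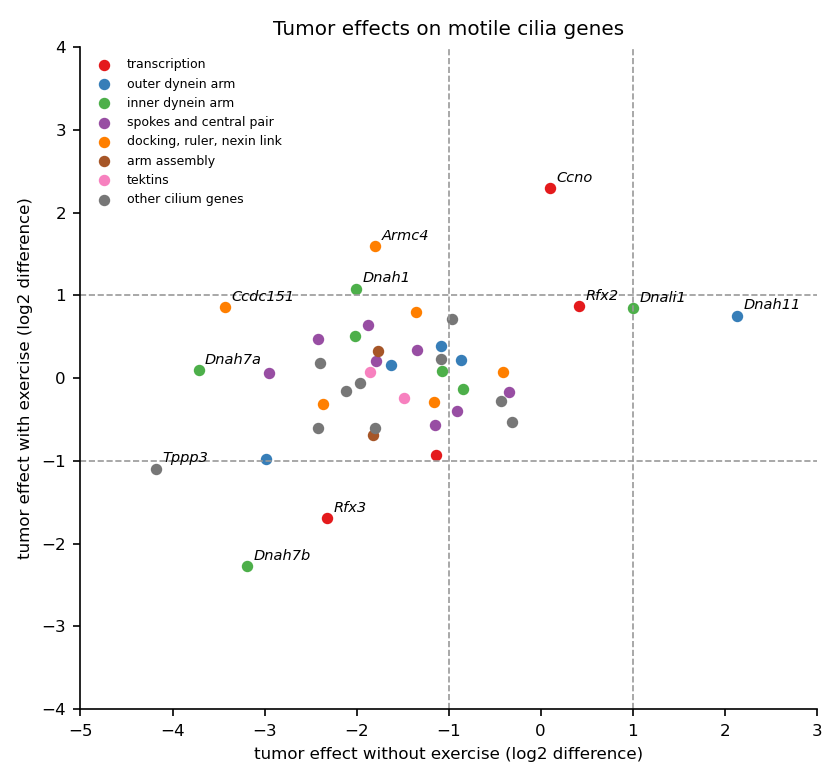
Tumor effect in lungs not exercised (horizontal, E(-)T(+) minus E(-)T(-)) against that in exercised lungs (vertical, E(+)T(+) minus E(+)T(-)), as log2 differences of the 44 filtered motile cilia genes, colored by role. No library enters both axes; 32 genes lie left of the dashed line at -1 and 3 (Rfx3, Dnah7b and Tppp3) lie below the horizontal one.

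Members whose 3' end lies inside or within 500 bases of another gene can take up its reads in 3' sequencing when strand is not used. In the GENCODE annotation this held for 14 members whose neighbor had reads, 11 of them with the neighbor on the other strand. Both members that were higher in the second comparison, Dnah11 and Dnali1, were among them. So was Dnaic1, whose 3' end lies inside Enho, 14 bases from the 3' end of that gene. Enho had 311, 286, 13 and 158 reads and a tumor effect of -4.11. In 8 of the 14 pairs the member and its neighbor lay on opposite sides of 0 in that comparison. Some of the 8 say little: Tekt2 had 4, 7, 1 and 1 reads, Otof beside Drc1 had 0, 2, 1 and 0, and Ttc14 beside Ccdc39 was at 0.04. Zmynd10 was at -1.76 and its neighbor Rassf1 at 1.42, Dnah1 at -2.01 and Bap1 at 0.54, Rsph9 at -1.88 and Mrps18a at 0.42. Without the 14 members, 23 of 31 filtered members were lower in the second comparison and 0 higher, with a median of -1.63. The part of shared reads in the values of Dnah11, Dnali1 and Dnaic1 was not tested.

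**Figure D4:**
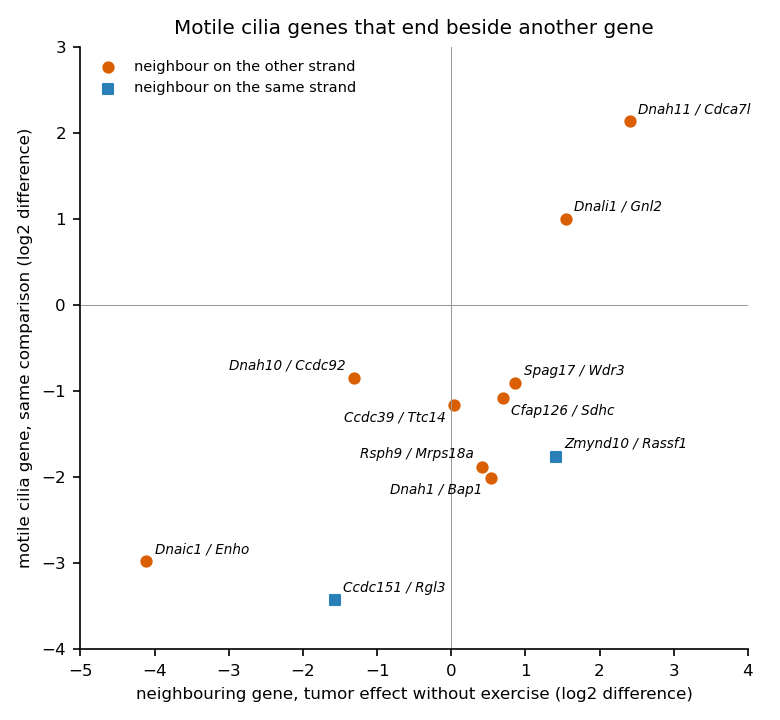
Tumor effect without exercise of motile cilia genes (vertical) against that of the gene beside their 3' end (horizontal), as log2 differences. Drawn are the 11 pairs whose member passed the filter and whose neighbor had at least 20 reads over the 4 libraries. Dnah11 and Dnali1, at 2.13 and 1.01, stand at the upper right with neighbors at 2.41 and 1.55.

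Other genes of the axoneme, which are no members, were also more often lower than higher in the second comparison. Of 97 with enough counts, 60 were lower (61.9%) and 6 higher (6.2%) in the second comparison (median -1.33). Among all rows 25.7% were lower and 20.6% higher there. In the third 65 were higher (67.0%) and 6 lower (6.2%), with a median of 1.49, against 24.3% higher and 17.7% lower among all rows. In the first 6 were higher (6.2%) and 3 lower (3.1%), against 5.28% and 4.7% of all rows. In the fourth 9 were higher (9.3%) and 10 lower (10.3%), with a median of 0.12, against 14.9% and 13% of all rows. Nme7, a nucleoside diphosphate kinase of the axoneme, had the highest mean, with 4468, 4096, 1655 and 6028 reads and tumor effects of -1.07 and 0.91. Tubb4b, a tubulin that many cell types express, was next, with tumor effects of 0.94 and 0.29, and Wdr38 had effects of 1.14 and 0.42. The whole list summed to 16041, 17588, 12053 and 20885 normalized counts, and to 1450, 1498, 1176 and 1336 CPM. E(+)T(+) was thus highest in normalized counts and below both lungs without tumor in CPM.

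Genes of centriole amplification and of the early multiciliated program passed the limit in both directions. Of 17, 3 were higher (17.6%) and 4 lower (23.5%) in the second comparison (median -0.08). Among all rows 20.6% were higher and 25.7% lower there, which are like shares. In the third 2 were higher and 4 lower (median 0.11), against 24.3% higher and 17.7% lower among all rows. In the fourth 2 were higher and 1 lower (median -0.13), against 14.9% higher and 13% lower among all rows. The list summed to 3848, 4073, 3865 and 3347 normalized counts. Its sum was thus lowest in E(+)T(+), and it was lowest there in CPM too. Myb, an early factor of the program that blood cells also express, had 111, 115, 32 and 123 reads, and Trp73 had 10, 14, 8 and 10. Plk4, the kinase that starts centriole duplication in dividing cells too, had 54, 20, 326 and 51 reads and was highest in E(-)T(+), where the sum of the cell division genes was also highest. Foxn4, whose mean stayed under the filter, had 0, 2, 0 and 11 reads. Its highest value was in E(+)T(+), as for Ccno and unlike the sum of the list. Myb, Trp73, Plk4 and Foxn4 were named after their values were seen, while Pcm1 and Cetn2, which had the highest means of the list, had tumor effects without exercise of 0.04 and -0.66.

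Genes of intraflagellar transport and the primary cilium serve the single cilium of most cell types as well. Of 49, 2 were lower (4.1%) and 9 higher (18.4%) in the second comparison (median 0.25). Among all rows 25.7% were lower and 20.6% higher there, so that the share higher was not above that of all rows. In the third 2 were higher (4.1%) and 13 lower (26.5%), with a median of -0.53, against 24.3% higher and 17.7% lower among all rows. Kif3a, a motor of this transport, had the highest mean, with 1108, 1512, 2457 and 933 reads. Its differences were 1.51 in the second comparison and -1.30 in the third, with signs opposite to the medians of the motile cilia genes. The RFX letters GTTGCC were in the promoters of 20 of 42 of these genes (47.6%) and of 42 of 97 other axoneme genes (43.3%).

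Most markers of alveolar and general lung epithelium were lower in the same library. All 10 genes of alveolar type 2 cells were lower in the second comparison (median -2.55) and 9 were higher in the third (median 2.30), and they summed to 227291, 275462, 31800 and 187220 normalized counts. Of 8 type 1 genes 6 were lower and 1, Akap5, was higher (median -2.22), and they summed to 67251, 81171, 36409 and 45750. In CPM the type 1 sum was lowest in E(+)T(+), at 6079, 6914, 3552 and 2927. In the fourth comparison the medians were -0.52 for type 2, with 1 of 10 lower, and -0.67 for type 1, with 3 of 8 lower, beside 0.08 for the members. Of 11 general epithelial genes 8 were lower and 1 higher (median -1.47), summing to 11895, 13934, 4246 and 18151. In CPM their sum was 1075, 1187, 414 and 1161, with E(+)T(+) no longer highest. In the fourth comparison 4 of these 11 were higher and 1 lower (median 0.31). Among all rows 25.7% were lower and 20.6% higher in the second comparison, 24.3% higher in the third, and 14.9% higher and 13% lower in the fourth. No gene of these 3 lists was without reads in any library.

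Club and secretory cells share the conducting airways with multiciliated cells, and their 14 genes split. In the second comparison 6 were lower and 4 higher (median -0.88), against 25.7% lower and 20.6% higher among all rows. The list summed to 551961, 648960, 187606 and 654621 normalized counts, and to 49898, 55276, 18303 and 41886 CPM. E(+)T(+) was thus highest in normalized counts and below both lungs without tumor in CPM. Scgb1a1, the main secretoglobin of club cells, had a tumor effect of -1.87, and Bpifa1, a secreted airway protein, had one of 4.15. The airway basal cell genes had few reads. Of 4 with enough counts 2 were higher and 0 lower in the second comparison, while the other 2 stayed within the limit, and the 7 with a row summed to 36.6, 29.3, 247 and 59.8. Krt15 had 17, 21, 188 and 28 of the list's 43, 32, 226 and 51 reads, and of the defining markers Krt5 had 0, 0, 18 and 1 reads and Trp63 had 7, 0, 1 and 0. Genes of sperm, which share much of the axoneme, were all at 0 reads in the 4 libraries, 8 of 8. E(+)T(+), where Ccno was highest, was also highest in the genes of red blood cells and of neutrophils. The 9 neutrophil genes with a row summed to 4022, 12330, 11854 and 209899. The part of any change in cell makeup in the values of the motile cilia genes was not tested.

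**Figure D5:**
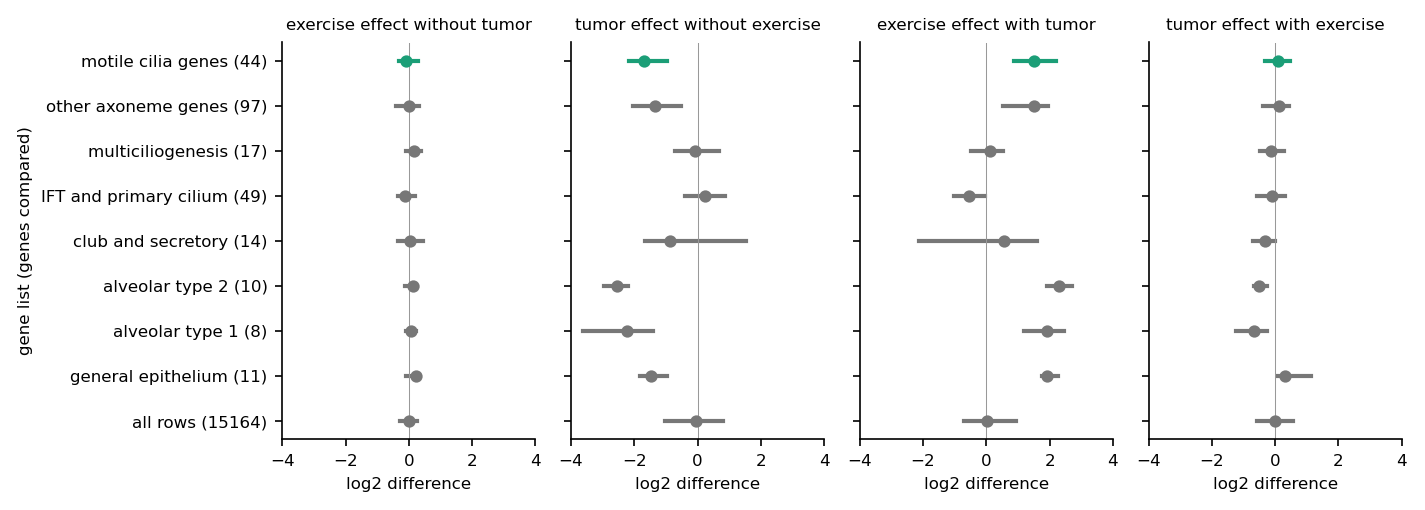
Median log2 difference (point) with quartiles (line) of the motile cilia genes, 3 lists of related cilia genes, 4 lists of epithelial markers and all filtered rows, in the 4 comparisons, with the number of genes compared beside each name. The motile cilia genes and other axoneme genes lie at -1.70 and -1.33 in the second panel and at 1.51 and 1.49 in the third, while genes of intraflagellar transport lie at 0.25 and -0.53.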

How the data were processed

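Lung RNA was measured in 4 libraries, 1 per group. The authors primed libraries at the poly(A) tail, aligned reads with Bowtie2 to mm10 (per the labels), counted with bedtools coverage and normalized counts by edgeR's quantile method. Tool versions, annotation and strand use are not given in the sources used here. The deposited values are log2(normalized count + 1) at 3 decimals. Whole reads were recovered by inverting that adjustment (dispersion 0.372), and 100% of the values were matched within 0.001. The recovery was tested on simulated data.

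Members were compared as differences of deposited log2 values, with a limit of 2-fold among rows with a mean normalized count of at least 4. Read ratios carry exact (Clopper-Pearson) 95% intervals, and shares Wilson intervals (scipy 1.17.1, statsmodels 0.14.6, Python 3.11.15). No test was run, because each group has 1 library and no replicate. Promoters came from RefSeq and gene positions from GENCODE M21. In each role the members with the highest mean count, up to 4, every transcription member with reads, and members past the limit with a mean of at least 50 were named with the value of every library. Members and lists were chosen with earlier results of these data known. Alternatives were other scalings, a pseudocount of 4, a filter of 20, a limit of 1.5-fold, and leaving out members with a neighbor at the 3' end. Totals per library and the floor of 3 reads stand in the report.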

Additional observations from a re-analysis of the deposited data

Results flagged for a closer look

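Armc4 and Dnah1 had effects of opposite direction, both of 2-fold or more, in lungs with and without the other factor. Members with 1 of the effects under 2-fold are not listed here. The differences were not tested, since each group has 1 library. Armc4 had an exercise effect of -1.53 without tumor and 1.86 with tumor, and a tumor effect of -1.80 without exercise and 1.59 with exercise, from 30, 9, 6 and 23 reads. Dnah1 had a tumor effect of -2.01 without exercise and 1.08 with exercise, from 9, 6, 1 and 11 reads, and its exact intervals reach past 0 in both (-8.26 to 0.05 and -0.34 to 2.94). No group had enough libraries to look for one far from the others.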

How the results depend on the processing

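Of the 4 medians, only that of the tumor effect with exercise turned its sign under a setting tried, from 0.08 to -0.31 with library totals alone. The 32 members lower in the tumor effect without exercise stayed within 1.5 times that count in all of them. Scaling by library totals alone gave medians of -0.17 in the exercise effect without tumor, 0.91 in the exercise effect with tumor (with 2 members lower) and -0.31 in the tumor effect with exercise (with 8 lower). At that scaling 35.4% of all rows were lower in the exercise effect with tumor and 24.2% in the tumor effect with exercise. Totals without red cell genes and Rn45s gave a median of -0.19 in the exercise effect without tumor, 1 member higher in the tumor effect without exercise and 5 lower in the tumor effect with exercise. With these totals 17.9% of all rows were higher in the tumor effect without exercise and 14.7% lower in the tumor effect with exercise. With a mean count of at least 20, 0 members were lower in the exercise effect without tumor and 1 was higher in the tumor effect with exercise, since fewer genes are compared. At 1.5-fold, 3 were higher in the exercise effect without tumor, 2 lower in the exercise effect with tumor, and 10 higher and 8 lower in the tumor effect with exercise. Without members beside another gene, a setting added after the data were seen, 0 were higher in the tumor effect without exercise and 0 lower in the exercise effect with tumor. The cause was not tested for the scalings. No paired analysis was possible because each group has 1 library, and no replicate could be left out for the same reason. Members with fewer than about 20 reads are known only within wide counting intervals.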
